A study of Mus musculus with 8 samples.

Results

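The MYC and MAX network is a small family of transcription factors that share a dimerisation surface and compete for the same DNA sites. It is described here through 9 genes chosen by symbol: Myc, Max, Mxd1, Mxd3, Mxd4, Mxi1, Mnt, Mga and Mlx. All 9 were found among the 21757 genes of the mouse count table and, in upper-case human spelling, among the 60237 genes of the knockdown tables. All 9 also passed the filter on low counts in both experiments, leaving none untested. Polyadenylated RNA was sequenced from 8 libraries, which form 2 separate experiments and 4 groups of 2. One experiment set wild-type (WT) organoids, which are self-renewing epithelial cultures from mouse small intestine, against organoids labelled Ctnnb1-ex3, the usual short name of a beta-catenin allele without exon 3, whose protein lacks the sites that mark it for degradation. The media differed with the genotype. WT organoids received Wnt3a, R-spondin1, Noggin at 0.1 µg/ml and EGF at 0.05 µg/ml, whereas Ctnnb1-ex3 organoids received Noggin and EGF at those doses and no Wnt3a or R-spondin1, so genotype and medium cannot be told apart. The other experiment set libraries with a scrambled hairpin (sh-scramble) against libraries with a hairpin to Prmt1 (sh-Prmt1), the gene of the main enzyme that places asymmetric dimethyl marks on arginine. The labels do not say how the Ctnnb1-ex3 allele was induced, in which cells, or how many animals or clones stand behind a group, and for the hairpins they give no medium, dose or time.

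MYC does not bind DNA alone. It pairs with MAX, and the pair sits on E-boxes, whose best known form reads CACGTG, where it recruits histone acetyltransferases and promotes the making of ribosomes, nucleotides and amino acid carriers. The MXD proteins, MXI1 (also called MXD2) and MNT pair with MAX as well, occupy the same sites and bring in SIN3 and histone deacetylases, while MGA pairs with MAX inside a Polycomb complex called PRC1.6. MLX stands in a parallel arm. It is the partner of the nutrient sensors MLXIP (MondoA) and MLXIPL (ChREBP), and it can also pair with MXD1, MXD4 and MNT. In the intestinal crypt MYC is known as a target of beta-catenin and TCF, and MXD1 is known as a gene of cells that have left the cycle and are differentiating.

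The mouse libraries held 2951887 to 6015933 counts and the knockdown libraries 39603984 to 53188511 estimated counts. The labels name mouse and small intestine for every library, but all 60237 gene identifiers of the knockdown tables are human, so the species and culture behind those 4 libraries are not established and their genes are given under human symbols. The hairpin target PRMT1 stood at 37.0 and 34.2 CPM (counts relative to library size) in the sh-scramble libraries and at 2.99 and 3.35 in the sh-Prmt1 libraries. It was 11.2-fold lower in sh-Prmt1 (edgeR adjusted p = 1.00e-06). A gene total cannot show the loss of exon 3, so the first experiment was checked through Axin2, a feedback gene of Wnt signalling, which read 13.6 and 12.9 CPM in WT and 131 and 152 CPM in Ctnnb1-ex3. Epithelial markers (Epcam, Cdh1, keratins, Vil1, Cdx1 and Cdx2) summed to 2561 and 3225 CPM in WT and 1791 and 2429 CPM in Ctnnb1-ex3. There 2 of the 8 fell, beside 20.5% of all genes tested. In the knockdown libraries these markers summed to 2974 and 2915 CPM (sh-scramble) and 3716 and 3620 CPM (sh-Prmt1), where 3 of the 8 rose, beside 20.6% of all genes tested. None of the 8 was at 3 counts or fewer in any library. Stromal and endothelial markers summed to at most 16.8 CPM in any library. The summed immune and blood markers were uneven, at 88.9 and 11.0 CPM in WT and 12.3 and 64.2 CPM in Ctnnb1-ex3. In WT replicate 1 that sum was mostly Lyz2, with 323 counts, a lysozyme gene of macrophages. In Ctnnb1-ex3 replicate 2 it included Gzma with 110 counts, Ptprc with 25 and Cd3e with 14, genes of lymphocytes, against 1, 1 and 2 counts in replicate 1. In the knockdown tables the blood gene HBB read 2 and 1 counts in sh-scramble and 116 and 222 counts in sh-Prmt1, and the summed list was 1.77 to 2.08 CPM against 8.55 to 8.79 CPM. Whether replicates were separate cultures or animals is not stated in the labels, so a p-value here measures spread among libraries that may be technical replicates. Levels come from bulk RNA, in which fewer cells of a type and less RNA per cell cannot be told apart.

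In Ctnnb1-ex3 organoids Myc was 2.38-fold higher than in WT, while Mxd1, a MAX-binding repressor that opposes it, was 5.51-fold lower. Mxd3, another repressor of the same family, rose 3.25-fold, Mga rose by 0.67 on the log2 scale and Mlx was 2.42-fold lower. Max, the partner that all but Mlx share, did not pass the test, and neither did Mxd4, Mxi1 or Mnt. In all, 3 of the 9 genes rose, where 20.3% of the 12976 genes tested rose, and 2 fell, where 20.5% of all genes fell. The median log2 fold change of the 9 was -0.25 beside 0.02 over all genes tested. The groups did not overlap for 7 of the 9, where 73.6% of all genes had groups that did not overlap, so as a set the family moved about as often as genes at large. The values below are CPM scaled by TMM, a method that sets each library against the bulk of its genes, and genes count as risen or fallen where the adjusted p was below 0.05 in edgeR's quasi-likelihood test over all genes.

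**Figure D1:**
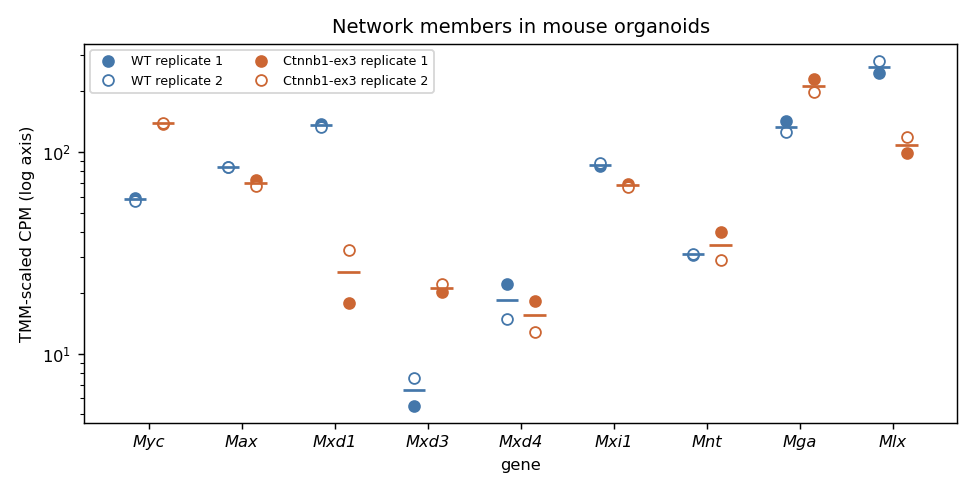
TMM-scaled CPM of the 9 network genes on a log axis in 2 WT libraries (blue) and 2 Ctnnb1-ex3 libraries (orange); filled points are replicate 1, open points replicate 2, and bars are group means. Mxd1 drops from 137 and 133 CPM to 17.9 and 32.6 CPM, while Myc rises from 59.2 and 57.1 CPM to 138 and 140 CPM with little spread within either group.

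Myc (chr15:61985391-61990374, plus strand, mm10) read 59.2 and 57.1 CPM in the WT libraries and 138 and 140 CPM in the Ctnnb1-ex3 libraries, from 150 to 917 counts per library. Both Ctnnb1-ex3 libraries lay far above both WT libraries, and the libraries of each group lay close together. The log2 fold change was 1.25 ± 0.13 (SE, edgeR adjusted p = 0.000404), and it passed the test under each of the 12 alternative settings run, between 1.21 and 1.49. Max (chr12:76937269-76962201, minus strand), whose protein every MYC dimer needs, read 83.8 and 83.7 CPM in WT and 72.6 and 67.8 CPM in Ctnnb1-ex3. The groups did not overlap, but the difference of -0.25 on the log2 scale did not pass the test (edgeR adjusted p = 0.165). The authors' deposited table of this comparison gives a log2 fold change of 1.25 for Myc and -0.26 for Max.

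Mxd1 (chr6:86647042-86669161, minus strand) had the largest difference of the 9 genes. It read 137 and 133 CPM in WT, from 597 and 349 counts, and 17.9 and 32.6 CPM in Ctnnb1-ex3, from 119 and 127 counts. The WT libraries agreed closely, whereas Ctnnb1-ex3 replicate 2 stood well above replicate 1, and both stayed far below WT. The log2 fold change was -2.46 ± 0.25 (edgeR adjusted p = 0.000371). Ctnnb1-ex3 replicate 2 is also the library with the lymphocyte counts given above, and Mxd1 fell by 2.92 on the log2 scale without that library and by 2.06 without replicate 1, passing the test both times.

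Mxd3 (chr13:55325168-55329823, minus strand) is the MXD gene best known from dividing cells. It read 5.53 and 7.61 CPM in WT, from 24 and 20 counts, and 20.1 and 22.1 CPM in Ctnnb1-ex3, from 134 and 86 counts, so that it went the other way from Mxd1. Its log2 fold change was 1.70 ± 0.39 (edgeR adjusted p = 0.0103), and the call was lost without WT replicate 1 (1.44, adjusted p = 0.087). Mxi1 (chr19:53310518-53375810, plus strand), a broadly expressed repressor of the family, read 85.2 and 87.5 CPM in WT and 69.6 and 67.1 CPM in Ctnnb1-ex3. Its groups did not overlap, and its log2 difference of -0.34 missed the threshold (edgeR adjusted p = 0.076), which it met without Ctnnb1-ex3 replicate 1 (adjusted p = 0.0213) or replicate 2 (adjusted p = 0.0432). Mxd4 and Mnt were the genes whose groups overlapped. Mxd4 (chr5:34173883-34187720, minus strand) read 22.1 and 14.8 CPM in WT and 18.2 and 12.8 CPM in Ctnnb1-ex3. Mnt (chr11:74830920-74845725, plus strand), the most widely expressed of the repressors that pair with MAX, read 30.9 and 31.2 CPM in WT and 40.1 and 29.0 CPM in Ctnnb1-ex3. Their log2 differences were -0.25 (edgeR adjusted p = 0.608) and 0.17 (edgeR adjusted p = 0.629), and the sign of each turned under some alternatives.

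Mga (chr2:119897228-119969581, plus strand), the scaffold of PRC1.6, read 142 and 125 CPM in WT and 229 and 197 CPM in Ctnnb1-ex3, with groups that did not overlap. Its log2 fold change of 0.67 ± 0.16 passed (edgeR adjusted p = 0.0116) but not without WT replicate 1 (adjusted p = 0.0791) or WT replicate 2 (adjusted p = 0.146). Mlx (chr11:101087277-101092207, plus strand) had the highest CPM of the 9 genes in WT, at 245 and 281, and read 98.6 and 119 CPM in Ctnnb1-ex3. Both Ctnnb1-ex3 libraries lay well below both WT libraries. The log2 fold change was -1.28 ± 0.17 (edgeR adjusted p = 0.00105), and Mlx passed under each of the 12 alternatives. The labels name a custom Smart-seq2, a full-length method that keeps no strand in its standard form, so reads of genes on opposite strands may not be told apart where exons overlap. In the GENCODE M21 annotation of GRCm38, 385 of the 1999 exon bases of Mlx are shared with Psmc3ip on the other strand, a gene that acts in meiotic recombination. Psmc3ip read 14.7 and 7.23 CPM in WT and 49.6 and 52.7 CPM in Ctnnb1-ex3, and so rose where Mlx fell (log2 fold change 2.17, edgeR adjusted p = 0.00204, and 2.79 without WT replicate 1). For Mxd3 the overlap is 105 of 2369 bases with Prelid1, for Mxd4 514 of 8483 bases with an antisense gene, and for Mxi1 194 of 6823 bases with Gm10197. Prelid1, at 227 and 292 CPM in WT and 160 and 239 CPM in Ctnnb1-ex3, did not pass the test (edgeR adjusted p = 0.211). The part of these overlaps in the members' values was not tested. These neighbours were looked at after their values were seen.

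Of the 4 other genes of the network 1 rose and 1 fell, where 20.3% of all genes rose and 20.5% fell. Mycl, a MYC paralog, read 27.2 and 28.9 CPM in WT and 81.5 and 79.4 CPM in Ctnnb1-ex3. It rose by 1.52 on the log2 scale (edgeR adjusted p = 0.000525). Mycn, the third paralog, was scarce, with 19 and 13 counts in WT and 3 and 8 counts in Ctnnb1-ex3, and missed the threshold (edgeR adjusted p = 0.0589). Its log2 difference ran from -3.28 to -1.17 over the alternatives, and it was called lower in limma-voom (adjusted p = 0.0399), under cyclic loess (adjusted p = 0.008) and when Ctnnb1-ex3 replicate 2 was left out (adjusted p = 0.00099). Of the sensors that pair with MLX, Mlxipl read 224 and 239 CPM in WT and 125 and 130 CPM in Ctnnb1-ex3 and fell by 0.86 on the log2 scale (edgeR adjusted p = 0.00292). Mlxip read 108 and 110 CPM against 142 and 116 CPM and did not pass (log2 difference 0.24, edgeR adjusted p = 0.216), but was called higher under upper-quartile scaling (0.48, adjusted p = 0.0349), under cyclic loess (0.48, adjusted p = 0.0394) and when Ctnnb1-ex3 replicate 2 was left out (0.38, adjusted p = 0.0216).

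Levels of different genes were set side by side per length, as CPM per kilobase of exon. The length was the union of exons over the protein-coding transcripts of a gene, for example 6656 bases for Mxi1 and 2447 for Myc. A gene expressed mainly as shorter isoforms would read too low on this scale, so the order and ratios below depend on it. In WT the order was Mlx (123 and 141), Max (42.8 and 42.7), Mxd1 (29.5 and 28.5), Myc (24.2 and 23.3), Mxi1 (12.8 and 13.1), Mga (10.2 and 8.96) and Mnt (6.72 and 6.80). Mxd3 (4.16 and 5.73) and Mxd4 (5.69 and 3.82) came last and overlapped. In Ctnnb1-ex3 Myc (56.3 and 57.0) overlapped with Mlx (49.6 and 59.7) at the top, Max followed (37.1 and 34.6), and Mxd3 (15.2 and 16.7) overlapped with Mga (16.4 and 14.1) above Mxi1 (10.5 and 10.1). Mnt (8.74 and 6.32) overlapped with Mxd1 (3.83 and 6.99), and Mxd1 overlapped with Mxd4 (4.68 and 3.31), so Mxd1 had moved from the third place to the last group. The level of Myc divided by the summed levels of the repressors Mxd1, Mxd3, Mxd4, Mxi1 and Mnt was 0.411 and 0.402 for WT, against 1.31 and 1.32 for Ctnnb1-ex3. With these exon lengths Myc RNA was below the sum of these 5 repressors in both WT libraries and above it in both Ctnnb1-ex3 libraries. Mga, which also pairs with MAX, was not in that sum. In Ctnnb1-ex3 the sum was 42.89 and 43.35, beside Myc at 56.3 and 57.0. Adding Mga (16.4 and 14.1) would lift it above Myc in both libraries, so the order there depends on which genes are summed. Whether the order holds with the lengths of single isoforms was not tested. Within the repressors Mxd1 made up 50.1% and 49.1% for WT, against 8.94% and 16.1% for Ctnnb1-ex3, while Mxd3 made up 7.08% and 9.89% and then 35.4% and 38.4%. Max divided by the sum of Myc and those repressors was 0.516 and 0.526 for WT, against 0.374 and 0.345 for Ctnnb1-ex3. Such ratios are taken within a library and so do not depend on the scaling between libraries. They do depend on the exon lengths used and on the genes summed. They describe RNA, not protein, and were not tested.

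The promoters of these genes were read for the E-box to which MYC, MXD and MLX dimers bind. The sequences come from RefSeq on GRCm38.p6 and were searched over the 250 bases before each start, on both strands. The E-box CACGTG was found in 3 of the 8 members with an entry, against 6.86% of 27025 genes, and Myc had no entry. The 3 were Mlx, with its match 40 bases before the start, Mnt at 123 bases and Mxd4 at 219 bases. The letters CTTTGA, a core of the TCF motif, were in the window of 0 of the 8, against 15.8% of genes. The promoters with an E-box are shown with that of Mxd1, which had the largest difference and no match, each 5′ to 3′ on the strand of its gene with the E-box in capitals. Each stretch is cut at the earliest start in RefSeq or GENCODE, which leaves 237 to 248 bases, whereas the positions above are counted from the RefSeq start, which can lie beyond the printed end. Mlx lies at chr11:101087040-101087276 on the plus strand, Mnt at chr11:74830674-74830919 on the plus strand, Mxd4 at chr5:34187721-34187960 on the minus strand and Mxd1 at chr6:86669162-86669409 on the minus strand.
Mlx: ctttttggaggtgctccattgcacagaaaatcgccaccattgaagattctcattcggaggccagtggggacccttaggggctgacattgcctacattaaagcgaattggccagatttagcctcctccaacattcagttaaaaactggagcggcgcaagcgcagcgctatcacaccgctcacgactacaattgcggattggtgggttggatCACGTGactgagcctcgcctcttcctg
Mnt: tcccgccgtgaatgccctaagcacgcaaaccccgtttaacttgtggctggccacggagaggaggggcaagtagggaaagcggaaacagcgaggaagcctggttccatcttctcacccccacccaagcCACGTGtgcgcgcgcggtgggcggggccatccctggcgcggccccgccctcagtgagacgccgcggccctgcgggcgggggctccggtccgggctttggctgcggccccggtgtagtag
Mxd4: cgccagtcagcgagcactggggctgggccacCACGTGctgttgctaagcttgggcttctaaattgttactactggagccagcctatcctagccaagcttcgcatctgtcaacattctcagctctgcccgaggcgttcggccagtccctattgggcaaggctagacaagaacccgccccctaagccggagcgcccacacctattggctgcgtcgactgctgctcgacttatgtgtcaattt
Mxd1: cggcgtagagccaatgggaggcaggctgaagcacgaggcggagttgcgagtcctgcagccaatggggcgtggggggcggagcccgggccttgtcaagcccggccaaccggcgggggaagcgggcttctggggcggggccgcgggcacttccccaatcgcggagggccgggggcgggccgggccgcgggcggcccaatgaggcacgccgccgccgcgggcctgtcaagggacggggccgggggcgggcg
Of the 3 genes with a match, Mlx fell in Ctnnb1-ex3 and Mnt and Mxd4 did not pass the test. A match to these letters is a description of the sequence, not a bound site.

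Genes that MYC is known to induce rose more often than they fell in Ctnnb1-ex3, and genes that it is known to repress mostly fell. Of 38 induced targets tested, 15 rose, 3 fell and 20 did not pass (median log2 fold change 0.26, beside 0.02 over all genes). Of all genes tested 20.3% rose and 20.5% fell. The largest rises were Slc7a5, a carrier of large neutral amino acids (21.4 and 16.7 CPM against 65.2 and 71.7 CPM, log2 fold change 1.82), and Pprc1, a coactivator of mitochondrial gene expression (1.39). They were followed by Ppan, which acts in ribosome assembly (1.33), and Ppat, the enzyme that commits to purine synthesis (1.29). The 3 that fell, named after their values were seen, were Ldha, a lactate dehydrogenase (-0.78), Tfrc, the transferrin receptor (-0.67), and Slc3a2, the subunit that carries Slc7a5 to the membrane (-0.57). Only 8 induced targets rose without WT replicate 1 and 7 without WT replicate 2, when the calls over all genes dropped from 5291 to 2960 and 2634. Of the falls, 1 was left without WT replicate 1 and 0 without WT replicate 2 or under cyclic loess, while 5 induced targets fell without Ctnnb1-ex3 replicate 2. None fell under upper-quartile scaling, which moved the median of all genes by 0.24 and the share of called genes that rose from 49.8% to 68.0%.

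Among 7 repressed targets 5 fell and 1 rose (median log2 fold change -0.73), where 20.5% of all genes fell and 20.3% rose. Cdkn2b, an inhibitor of CDK4 and CDK6 that MYC is known to repress through its partner Zbtb17 (MIZ1), had the largest difference. It read 215 and 223 CPM in WT and 18.3 and 21.3 CPM in Ctnnb1-ex3, 11.1-fold lower (edgeR adjusted p = 2.39e-05). Ndrg1 (-0.96) and Ndrg2 (-0.81), named for being low when MYCN is high, fell as well. Cdkn1c, an inhibitor of cyclin-dependent kinases, was the exception, at 5.07 and 7.99 CPM against 24.8 and 23.4 CPM (log2 fold change 1.91, edgeR adjusted p = 0.00636, lost without WT replicate 1 at 0.0508). Without WT replicate 2 only 2 of the 7 fell, and 3 fell under upper-quartile scaling.

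All 6 tested targets of MLX with its sensors fell (median log2 fold change -1.92), where 20.5% of all genes fell and 20.3% rose. Pklr, a pyruvate kinase, read 277 and 271 CPM in WT and 62.2 and 51.9 CPM in Ctnnb1-ex3 (-2.26). Khk, the fructose kinase (-1.94), and Gpd1, a glycerol phosphate dehydrogenase (-1.90), fell with it. Acacb, an acetyl-CoA carboxylase (-2.23), fell from few counts and lost its call without either WT library. Txnip (-0.91) and Arrdc4 (-0.85), arrestin-like restraints on glucose uptake, were the smaller falls. Absorptive cells of the villus also express several of these metabolic genes. All 10 enterocyte genes fell in the same libraries (median -2.03), among them Alpi (390 and 448 CPM against 42.2 and 17.0 CPM) and Krt20 (283 and 324 CPM against 52.0 and 46.2 CPM). In the same libraries 7 of 11 proliferation genes rose (3 without either WT library), led by E2f1 (2.07) and Mcm3 (1.30), and all 11 tested Wnt target genes rose (median 2.42). The part of these cell states in the changes of Mxd1, Mlx, Myc and the target lists was not tested.

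The partners of the network had few calls in Ctnnb1-ex3, and their number depended on the scaling and on single libraries. Of 13 MYC coactivators 4 rose and 0 fell: Kat2a, a histone acetyltransferase (0.92), Ruvbl1, an ATPase of chromatin complexes (0.85), Zbtb17 (0.77) and the scaffold Trrap (0.56). Without WT replicate 1 only 1 of them rose, without WT replicate 2 only 2, without either Ctnnb1-ex3 library 7, under cyclic loess scaling 9 and under upper-quartile scaling 10. Of 15 SIN3 and NCOR corepressor genes 3 rose and 0 fell. Sin3a, the scaffold that MXD proteins bind (0.68), and Hdac1, a histone deacetylase (0.39), were among the rises and lost their calls without either WT library. The list had 1 rise without either WT library, 5 without either Ctnnb1-ex3 library, 6 under upper-quartile scaling and 7 under cyclic loess. Of 12 genes of PRC1.6, 1 rose, Rnf2 of its ubiquitin ligase core (0.53). That call was lost without either WT library and without Ctnnb1-ex3 replicate 1 (0.33, adjusted p = 0.0667). In PRC1.6 the rises numbered 0 in the DESeq2 test, in limma-voom and with no filter, 3 without Ctnnb1-ex3 replicate 1, 2 without Ctnnb1-ex3 replicate 2, 5 under cyclic loess and 6 under upper-quartile scaling. Of 13 genes of MYC protein turnover 3 rose and 0 fell: Skp2, a ubiquitin ligase subunit that acts on MYC (1.10), Usp36, a deubiquitinase of the nucleolus (0.72), and Cip2a, which shields MYC from a phosphatase (0.71). All 3 lost their calls without WT replicate 2, whereas 5 turnover genes rose without Ctnnb1-ex3 replicate 1 or under upper-quartile scaling and 7 under cyclic loess. With TMM these shares lay near or below the 20.3% of all genes that rose, apart from the coactivators with 4 of 13. No gene of these lists fell in that fit, where 20.5% of all genes fell. With the replicate number as a block 1 corepressor gene and 2 turnover genes fell.

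In sh-Prmt1 libraries 3 of the 5 MAX-binding repressors rose and MYC itself did not pass the test. MXD1 was 2.63-fold higher than in sh-scramble, MXD4 2.15-fold higher and MNT 1.84-fold higher. MLX was 1.61-fold lower and MAX 1.30-fold lower. MXD3, MXI1 and MGA did not pass. Again 3 of the 9 genes rose, where 20.6% of 18444 genes tested rose, and 2 fell, where 20.4% fell. The median log2 fold change of the 9 was 0.08 beside 0.03 over all genes. Groups did not overlap for 6 of the 9, where 71.1% of all genes had groups that did not overlap.

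**Figure D2:**
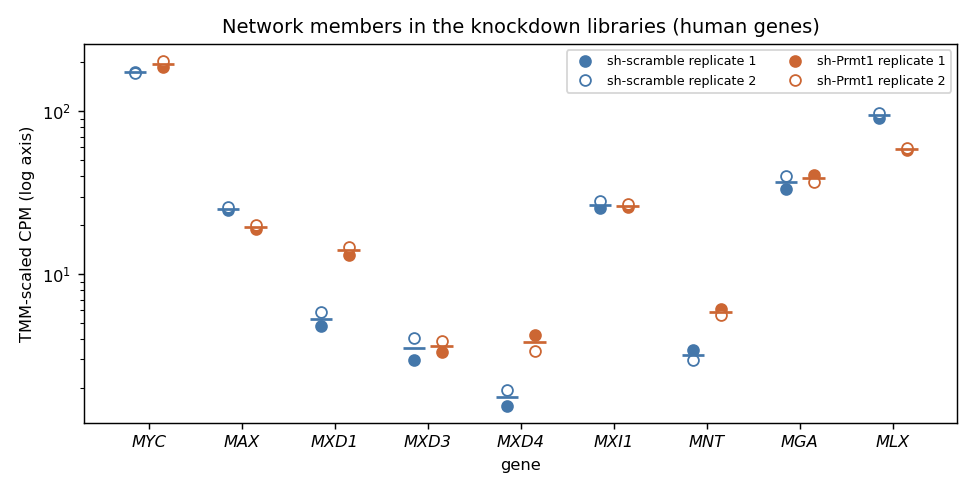
TMM-scaled CPM of the 9 network genes under human symbols, on a log axis, in 2 sh-scramble libraries (blue) and 2 sh-Prmt1 libraries (orange); filled points are replicate 1, open points replicate 2, and bars are group means. MXD1 moves from 4.80 and 5.85 CPM to 13.2 and 14.8 CPM, while MYC lies between 172 and 203 CPM.

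MYC (ENSG00000136997.20) read 174 and 172 CPM in sh-scramble and 186 and 203 CPM in sh-Prmt1. The sh-Prmt1 libraries were the higher ones and the groups did not overlap, but the log2 difference of 0.17 ± 0.09 did not pass (edgeR adjusted p = 0.157). It passed under cyclic loess scaling (0.33, limma adjusted p = 0.00967) and on TPM, transcript abundance per length scaled to a fixed total (0.34, limma adjusted p = 0.0389), where the median of all genes itself moved by 0.14. MAX (ENSG00000125952.20) read 24.8 and 25.8 CPM in sh-scramble and 18.9 and 20.1 CPM in sh-Prmt1. It fell by 0.37 on the log2 scale (SE 0.09, edgeR adjusted p = 0.00978). The call was lost on TPM (limma adjusted p = 0.118) and without sh-Prmt1 replicate 1 (adjusted p = 0.0505).

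MXD1 (ENSG00000059728.11) read 4.80 and 5.85 CPM in sh-scramble, from 178 and 248 counts, and 13.2 and 14.8 CPM in sh-Prmt1, from 565 and 840 counts. Both sh-Prmt1 libraries stood well above both sh-scramble libraries. The log2 fold change was 1.39 ± 0.14 (edgeR adjusted p = 7.42e-05), and MXD1 passed under each of the 12 alternatives, between 1.21 and 1.57. On TPM the ratio of group means was larger, at 4.35-fold. Salmon's effective length of the gene, which follows the mix of isoforms it assigns, went from 1974 and 2293 bases in sh-scramble to 1475 and 1512 bases in sh-Prmt1. The authors' deposited table gives a log2 fold change of 1.86 for MXD1 and 0.11 for MYC.

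MXD4 (ENSG00000123933.17) was scarce, at 1.56 and 1.96 CPM in sh-scramble and 4.25 and 3.38 CPM in sh-Prmt1. MNT (ENSG00000070444.15) read 3.43 and 2.97 CPM in sh-scramble and 6.10 and 5.65 CPM in sh-Prmt1. Neither gene's groups overlapped, and both rose, by 1.11 ± 0.22 (edgeR adjusted p = 0.00316) and 0.88 ± 0.16 (edgeR adjusted p = 0.00219) on the log2 scale, with calls that stood under each of the 12 alternatives. The remaining repressors overlapped between groups. MXD3 read 2.99 and 4.06 CPM in sh-scramble and 3.32 and 3.91 CPM in sh-Prmt1 (log2 difference 0.04, edgeR adjusted p = 0.911). MXI1 read 25.3 and 28.1 CPM against 26.0 and 26.9 CPM (log2 difference -0.02, edgeR adjusted p = 0.901). MGA read 33.3 and 40.1 CPM against 40.9 and 37.0 CPM (log2 difference 0.08, edgeR adjusted p = 0.573), so its groups overlapped as well.

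MLX (ENSG00000108788.11) read 90.8 and 97.9 CPM in sh-scramble and 57.8 and 59.7 CPM in sh-Prmt1, with groups far apart. It fell by 0.68 on the log2 scale (SE 0.09, edgeR adjusted p = 0.000204) and passed under each of the 12 alternatives. PSMC3IP, whose mouse counterpart shares exon bases with Mlx, read 65.3 and 78.1 CPM in sh-scramble and 26.0 and 20.9 CPM in sh-Prmt1 (log2 fold change -1.62, edgeR adjusted p = 1.69e-05). A human annotation was not used here, so an overlap of the pair was not looked up, and its part in the value of MLX was not tested. MLXIP, the MondoA sensor that pairs with MLX, went the other way, from 101 and 100 CPM to 158 and 151 CPM (log2 fold change 0.62, edgeR adjusted p = 0.000303). MLXIPL held 8 to 16 counts per library and missed the threshold (edgeR adjusted p = 0.682). MYCL fell from 6.37 and 6.11 CPM to 3.06 and 3.38 CPM (log2 fold change -0.95, edgeR adjusted p = 0.00108), a call lost on TPM (limma adjusted p = 0.0622), while MYCN, at 5.99 and 6.23 CPM against 6.14 and 6.15 CPM, did not pass (edgeR adjusted p = 0.969).

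Per length, in TPM, MYC stood first in every knockdown library, at 85.3 and 85.9 for sh-scramble, then 109 and 108 for sh-Prmt1. MLX came next (26.1 and 29.7, then 20.0 and 19.4), followed by MAX (11.7 and 12.2, then 9.75 and 10.1) and MXI1 (5.48 and 6.90, then 6.98 and 6.23). MXD3 (1.89 and 2.75) and MGA (2.42 and 1.95) overlapped in sh-scramble, above MXD1 (1.36 and 1.49), MNT (0.693 and 0.632) and MXD4 (0.382 and 0.478). In sh-Prmt1 MXD1 (6.17 and 6.24) had reached MXI1 and overlapped with it. MGA (2.53 and 3.36) overlapped with MXD3 (2.94 and 2.88), and MNT (1.49 and 1.33) with MXD4 (1.51 and 1.03). MYC divided by the summed repressors was 8.70 and 7.02 for sh-scramble, against 5.72 and 6.08 for sh-Prmt1, so MYC RNA exceeded its repressors in every one of these libraries and by less in sh-Prmt1. MXD1 made up 13.9% and 12.2% of the repressors for sh-scramble, against 32.3% and 35.3% for sh-Prmt1, while the share of MXI1 went from 55.9% and 56.3% to 36.6% and 35.2%. MAX divided by MYC and the repressors was 0.123 and 0.125 for sh-scramble, against 0.0760 and 0.0807 for sh-Prmt1. Because the unit, the annotation and the species of the genes differ, these ratios were not compared with those of the mouse organoids.

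**Figure D3:**
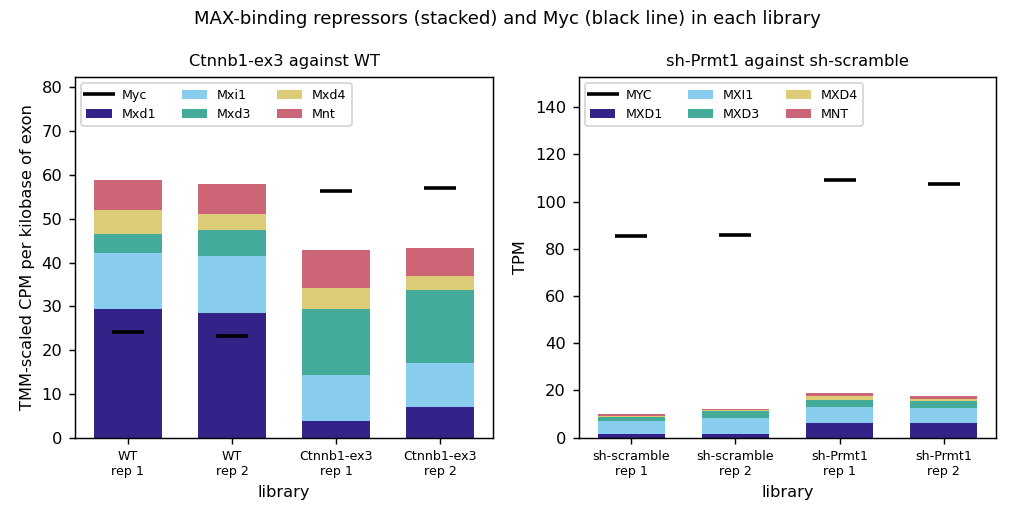
Stacked bars give the levels of Mxd1, Mxi1, Mxd3, Mxd4 and Mnt and black lines the level of Myc in each library, as TMM-scaled CPM per kilobase of exon (left) and TPM (right). On the left Myc moves from below the stack (ratios 0.411 and 0.402) to above it (1.31 and 1.32) as the dark Mxd1 block shrinks, and on the right MYC stays far above a stack whose MXD1 block grows. The levels and ratios on the left depend on the exon lengths used. The stack leaves out Mga, which at 16.4 and 14.1 in Ctnnb1-ex3 would lift it above Myc there.

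In sh-Prmt1 libraries most MYC-repressed targets rose and, with TMM, more MYC-induced targets fell than rose. Of 7 genes that MYC is known to repress, 6 rose and 0 fell (median log2 fold change 1.01), where 20.6% of all genes rose and 20.4% fell. CDKN2B read 0.944 and 0.778 CPM in sh-scramble and 3.85 and 3.15 CPM in sh-Prmt1 (log2 fold change 2.02, edgeR adjusted p = 0.00018). NDRG1, a gene of growth arrest and stress, read 9.36 and 10.2 CPM against 31.0 and 32.2 CPM (1.69, edgeR adjusted p = 5.89e-06). CDKN1C (1.38) and CDKN1B (1.01), inhibitors of cyclin-dependent kinases, rose with them, and NDRG2 (-0.12) did not pass. Of 38 induced targets 15 fell and 7 rose, with a median of -0.05, and the rises lay near the 20.6% over all genes. The largest falls were EIF4E, the cap-binding factor of translation (428 and 487 CPM against 242 and 256 CPM, -0.88), and WDR43, of ribosome assembly (-0.81). HSPE1, a mitochondrial chaperonin (-0.73), and NOP58, a protein of nucleolar RNA particles (-0.72), followed. On TPM only 5 induced targets fell, and under cyclic loess scaling 12 rose, so these counts depended on the scaling and the unit. Of 11 proliferation genes 7 fell, led by PCNA, the clamp of DNA replication (-0.81), with 3 falling without sh-Prmt1 replicate 1, 2 under cyclic loess scaling and 1 on TPM. Of the 4 tested immune and blood markers, 3 rose in the same libraries: HBB, as given above, CD68 (43 and 36 counts against 161 and 182) and LYZ (18 and 22 counts against 64 and 60, called in 11 of 12 alternatives). Their part in the changes of the members and target lists was not tested.

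Of 6 MLX targets 3 rose and 0 fell, where 20.6% of all genes rose and 20.4% fell. The rises were GPD1 (1.14), ARRDC4 (0.50) and KHK (0.46). TXNIP, the best known target of MLX with MondoA, did not pass (log2 difference -0.17, edgeR adjusted p = 0.135), nor did PKLR (0.45) or ACACB (0.13). The MYC coactivators split, with 3 of 13 higher and 4 lower, near the 20.6% and 20.4% of all genes. ACTL6A, an actin-like subunit of chromatin complexes, read 298 and 310 CPM in sh-scramble and 163 and 162 CPM in sh-Prmt1 (-0.91), while ZBTB17 (0.81) and CDK9, a kinase of transcript elongation (0.38), were among the rises. The call of CDK9 was lost without sh-scramble replicate 1 (adjusted p = 0.397), sh-Prmt1 replicate 1 (0.174) or sh-Prmt1 replicate 2 (0.0733). Of the coactivators 2 fell without sh-Prmt1 replicate 1, 1 without replicate 2 and 1 on TPM. Corepressor genes split too, with 6 of 15 higher (3 without sh-scramble replicate 2) and 6 lower. With all libraries both corepressor shares lay above the 20.6% and 20.4% of all genes. BRMS1, a SIN3 subunit, rose (1.14), and RBBP4 (-1.04), SAP30 (-1.04) and SUDS3 (-0.77), of the same complex, fell. In PRC1.6, the complex of MGA, 4 of 12 rose and 5 fell, which also lay above the shares over all genes. The largest falls were TFDP1, a partner of E2F proteins (180 and 185 CPM against 63.9 and 77.0 CPM, -1.37), RNF2 (-1.20) and PCGF6 (-1.19), the latter 2 of the ubiquitin ligase core. CBX3, a heterochromatin protein (-0.80), came next. Of 13 turnover genes 3 rose and 3 fell, again near the share over all genes. SKP2 (-1.15) and SET, an inhibitor of the phosphatase PP2A (-0.59), fell, the list having 1 fall on TPM, while USP28, which stabilises MYC (0.56), and GSK3B, which marks MYC for degradation (0.51), rose. Wnt target genes, which all rose in the first experiment, had 1 rise (LEF1, 1.09) and 1 fall (LGR5, -0.68) among 11 here. Enterocyte genes, which all fell in the first experiment, had 1 rise, 1 fall and 4 without a call among 6 tested here (median log2 fold change 0.096).

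**Figure D4:**
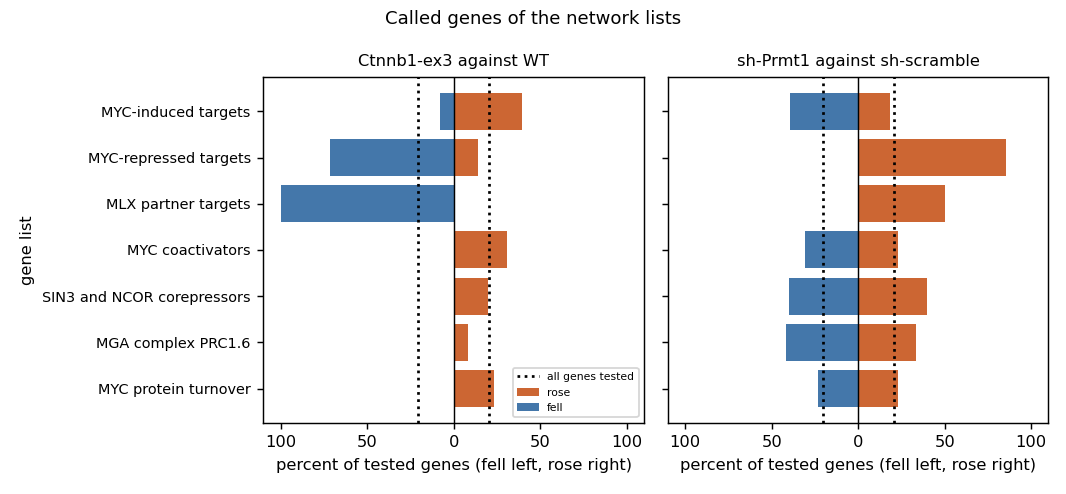
Percent of the tested genes of each list that fell (blue, left) and rose (orange, right) in each experiment, with dotted lines at the percent of all genes tested. MYC-repressed targets fell in 5 of 7 genes with Ctnnb1-ex3 and rose in 6 of 7 with sh-Prmt1, and all 6 MLX partner targets fell with Ctnnb1-ex3.

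The experiments share no library, and their values for the members can be read side by side. Mxd1 was lower in Ctnnb1-ex3 (log2 fold change -2.46) and MXD1 higher in sh-Prmt1 (1.39). MLX RNA was lower in both (-1.28 and -0.68), each against its own control. Myc passed in the first (1.25) and not in the second (0.17), Mxd3 likewise (1.70 and 0.04), whereas MXD4 and MNT passed in the second alone. Cdkn2b was lower in Ctnnb1-ex3 (-3.48) and CDKN2B higher in sh-Prmt1 (2.02). Mouse Prmt1 itself read 10.1 and 11.4 CPM in WT and 51.3 and 32.4 CPM in Ctnnb1-ex3 (log2 fold change 1.97, edgeR adjusted p = 0.00287). Because the gene tables differ in species, the difference between the experiments was not tested.

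**Figure D5:**
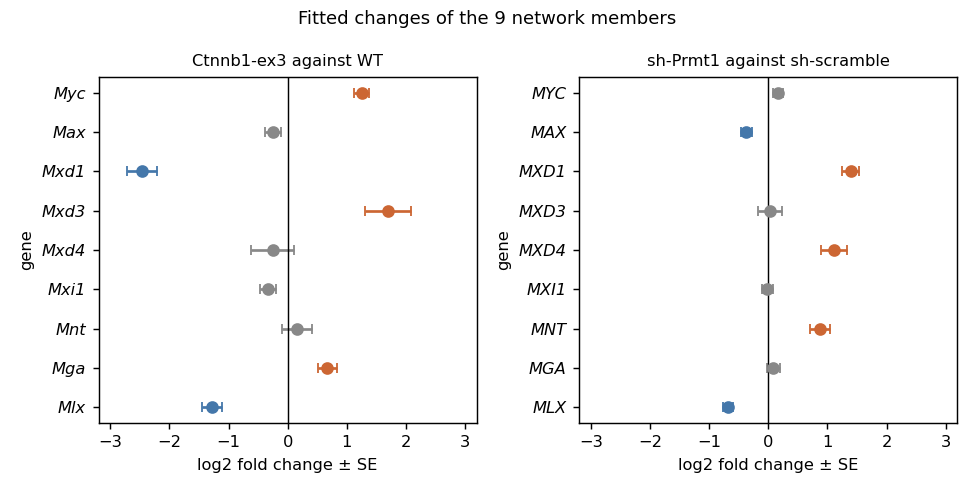
Log2 fold change of each of the 9 network genes with its standard error, Ctnnb1-ex3 against WT on the left and sh-Prmt1 against sh-scramble on the right; orange genes rose, blue genes fell and grey genes did not pass the test. Mxd1 is the leftmost point on the left (-2.46) and MXD1 the rightmost on the right (1.39), while Mlx is blue in both.

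The genes whose pattern lay closest to that of Myc were found by the root mean square difference of log2 CPM, each gene centred on its mean over the 4 libraries of an experiment. Among 8951 mouse genes of sufficient level they were Sox9, a transcription factor of crypt stem and Paneth cells (0.0248), Clspn, an adaptor of the replication checkpoint (0.0351), and 2610301B20Rik (0.0383). Sox9 read 121 and 116 CPM in WT and 271 and 287 CPM in Ctnnb1-ex3, and Clspn 35.2 and 33.5 CPM against 77.9 and 78.9 CPM. Among 3275 genes of the knockdown tables they were ACTR2, a subunit of the actin-nucleating ARP2/3 complex (0.00997), HP1BP3, a chromatin protein (0.0173), and EMC7, of a membrane insertase (0.0175), none of which passed the test. With 4 libraries and a single contrast in each experiment, this likeness is little more than a like fold change.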

How the data were processed

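Polyadenylated RNA of 8 libraries was compared in 2 experiments, grouped by the sample titles. For WT and Ctnnb1-ex3 the authors deposited a table of whole counts by mouse symbol, with library totals of 4631527, 2951887, 6015933 and 3683169. The lowest deposited count is 1, the value of 861 genes in every library. For the hairpins the authors deposited Salmon tables summed by gene, which per the file headers hold estimated counts (totals of 39732361, 45883057, 39603984 and 53188511), TPM and effective lengths. The submitters' processing notes name mm10, Salmon and DESeq2 without versions. How mouse reads were counted, the annotations and the human build were each not given in the sources used here. The authors also deposited log2 fold changes and adjusted p-values of each comparison.

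Estimated counts were rounded, and 203 human sex-linked genes were left out. Separate fits of the experiments used edgeR 4.0.16 (TMM, filterByExpr, two-sided quasi-likelihood test, Benjamini-Hochberg over all genes tested), which left 12976 and 18444 genes and a biological coefficient of variation of 0.171 and 0.105. SE was the log2 fold change divided by the root of F. The script was tested on simulated data. Exon lengths and overlaps came from GENCODE M21 on GRCm38, and promoters from RefSeq. The totals limit precision to 0.499 to 1.02 CPM for 3 counts in the mouse libraries and to 0.0564 to 0.0757 CPM in the others, for counting error only.

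The text names all 9 members, Mycn, Mycl, Mlxip, Mlxipl, Prmt1 and Axin2, and from each list up to 4 called genes with the largest change among those whose groups did not overlap, plus the 3 genes most like Myc. Some genes that this rule names are not reported here. The members and lists were chosen with earlier results of these data known. Alternatives were upper-quartile and DESeq2 1.42.0 size factors, the DESeq2 test, limma 3.58.1 voom with TMM or cyclic loess, no filter, the replicate number as a block, 1 taken from every mouse count, limma on log2(TPM + 1), and each library left out.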

Additional observations from a re-analysis of the deposited data

How the results depend on the processing

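Among 12 alternatives in each experiment, those that changed neither the sample set nor the unit left 3 rises and 2 falls among the 9 genes, except that 4 genes rose in sh-Prmt1 under cyclic loess, MYC being added. In Ctnnb1-ex3, leaving out a library gave 1 to 3 rises, the lowest without WT replicate 1, when Mxd3 and Mga lost their calls, and 2 to 3 falls, Mxi1 being added. In sh-Prmt1, 4 genes rose on log2(TPM + 1), and the 2 falls became 1 on log2(TPM + 1) and 1 to 2 with a library left out, the lowest without sh-Prmt1 replicate 1, and the gene lost was MAX. A lone library left in a group was assumed to vary like the other group. Signs turned only for genes that had not passed. With a library left out Mxd4 read -0.56 to 0.042, turning without WT replicate 1, and Mnt -0.11 to 0.37, turning without Ctnnb1-ex3 replicate 1. Mnt read -0.12 under cyclic loess. MXD3 read -0.0014 with no filter and -0.21 to 0.26 with a library left out. MXI1 read 0.086 on log2(TPM + 1) and -0.14 to 0.045 with a library left out, and MGA -0.092 to 0.21. MYCN read -0.013 with DESeq2 size factors and -0.013 in the DESeq2 test, -0.057 under cyclic loess, -0.026 with no filter and -0.068 to 0.022 with a library left out. The cause was not tested.

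Upper-quartile scaling moved the median of all mouse genes by 0.24, cyclic loess by -0.13, and TPM that of the human genes by 0.14, with 65.1% of called genes rising on TPM against 50.2%. The labels do not say that replicate numbers pair samples, and same-numbered libraries deviated together with a correlation of 0.07 in the mouse table and -0.05 in the human one. With the replicate block, 3 members rose and 2 fell in each experiment, and calls over all genes went from 5291 to 6484 and from 7558 to 7086. MYC-induced targets in Ctnnb1-ex3 then had 19 rises and 10 falls, and Mycn was called lower (adjusted p = 0.0305). With 2 libraries a group and few counts, small differences of Mycn, Mxd3 and Mxd4 in the mouse and of MLXIPL were not detectable at this depth.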
